A study of Mus musculus with 4 samples.

Results

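Complement transcripts were examined in subcutaneous tumors grown from LLC (mouse Lewis lung carcinoma) cells for 5 days in syngeneic C57BL/6 mice. The 9 genes described are 5 of the classical pathway (C1qa, C1qb, C1qc, C1ra and C4b), the central component C3, Cfb of the alternative pathway, and the regulators Serping1 and Cd55, out of 47729 genes in the deposited table. They were chosen from the complement genes with their levels in both groups already known, so their differences between the groups are given as a description with no p-value. By the sample labels, the cells of LLC-Chem tumors carried a pEFIN plasmid for chemerin (1-157), with the insert named as murine, and the controls (LLC) are labelled wild type, although the study also describes cells with an empty vector. Each group consisted of 2 pools of 3 tumors, 1 library per pool. The transfected cells had been taken through selection and collected as clones, so that a difference between clones and an effect of chemerin cannot be told apart here, and the mice were 6 to 10 weeks old by the study's general methods, with no sex given in the sources used here.

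Complement is a cascade of plasma and tissue proteins that tags surfaces for uptake by phagocytes, attracts leukocytes and can open pores in membranes. The classical pathway starts when C1q binds a target and activates the proteases C1r and C1s, which cleave C4 and C2, the alternative pathway amplifies deposited C3 through factor B and factor D, and both meet at the cleavage of C3. Liver is the main source of the plasma proteins, while in solid tissue C1q is made mostly by macrophages, and C3, C4, C1r, C1s and C1 inhibitor by fibroblasts and other stromal cells as well.

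Levels were deposited as RPM, the reads of a gene per 1000000 reads counted on genes (1 M). Totals fitted to the values, assuming counts scaled to 20000000 and rounded up, were 28.5 M to 34.0 M reads for the 4 libraries. At these totals 3 reads correspond to 0.088 to 0.105 RPM, which covers counting error only. Log2 fold changes are differences of log2(RPM + 0.5), LLC-Chem minus LLC, with standard errors from limma over the 13694 genes that averaged at least 1 RPM. Of these, 13.5% were called lower and 9.54% higher in the pools labelled LLC-Chem (adjusted p under 0.05), and 39.3% had both of their LLC-Chem values below both LLC values. Rarres2, the gene of chemerin, stood at 102.2 and 98.2 RPM in LLC against 105.9 and 105.8 RPM in LLC-Chem (adjusted p = 0.541 by limma). The rise that a murine insert would be read for was thus not seen. RNA of the transfected gene therefore does not bear out the LLC-Chem label. The study did report bioactive chemerin in medium of its transfected LLC cells, measured in culture and not in tumors. Every direction below is one between pools as labelled.

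All 9 complement genes reached the limit for testing, and in all 9 both pools labelled LLC-Chem were below both LLC pools, an order shared by 39.3% of all genes tested. The log2 fold changes lay between -0.39 and -1.84 (median -0.85), and the median over all genes tested was -0.04. As with p-values, no calls are given for the 9 genes. Nothing is read from the shared order, since the genes were selected on the same comparison. Cfb passed the limit only through its LLC pools (LLC-Chem mean 0.72 RPM). In bulk tumor RNA, fewer cells of a type and less RNA per cell cannot be told apart.

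**Figure D1:**
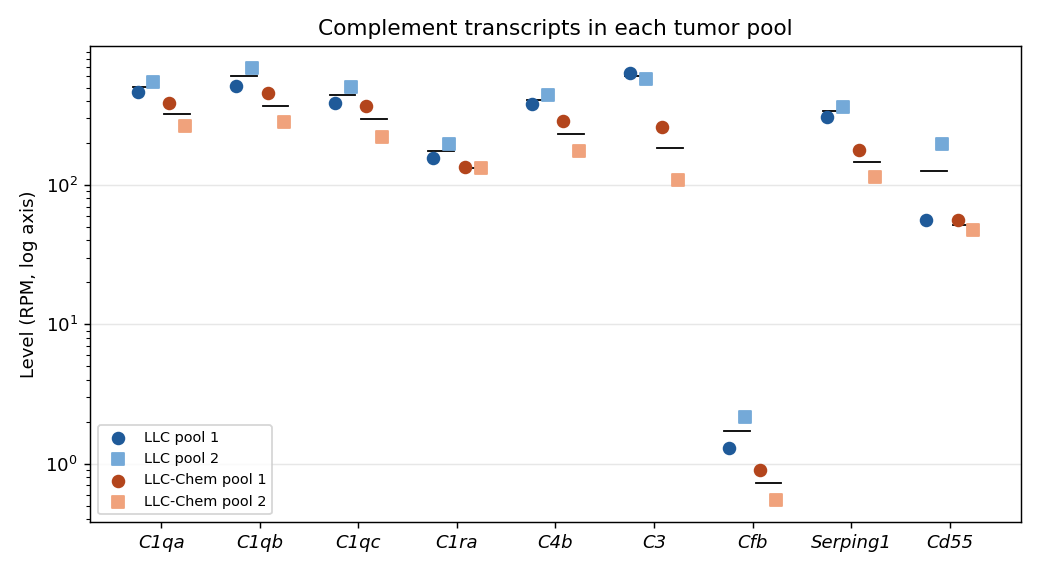
Level of the 9 complement genes in each pool in RPM on a log axis, with circles for the first and squares for the second pool of a group and black lines at the group means. C3 shows the widest gap, from 580.0 and 635.3 RPM in LLC to 109.1 and 261.2 RPM in LLC-Chem, and the LLC mean of Cd55 rests on 1 pool.

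C1qa, C1qb and C1qc encode the A, B and C chains that assemble in equal numbers into C1q, the recognition unit of the classical pathway. The genes lie side by side on chromosome 4 of GRCm38 on the minus strand, C1qb from 136880129 to 136886187, C1qc from 136889804 to 136893065 and C1qa from 136895917 to 136898803. C1qa measured 467.5 and 546.2 RPM in LLC and 384.6 and 265.9 RPM in LLC-Chem. C1qb measured 511.1 and 695.5 RPM in LLC and 459.7 and 282.6 RPM in LLC-Chem. C1qc measured 387.3 and 503.5 RPM in LLC and 371.6 and 221.3 RPM in LLC-Chem. The chains shared 1 order of the pools: the second LLC pool was highest, then the first LLC pool, then the first pool labelled LLC-Chem, and the second pool labelled LLC-Chem was lowest. The gap between the groups was narrow for C1qb and C1qc, whose first pools differed by less than the LLC pools did from each other, as was also so for C1ra, Cfb and Cd55. The log2 fold changes were -0.66 for C1qa (standard error 0.20), -0.73 for C1qb (standard error 0.27) and -0.62 for C1qc (standard error 0.27). Without the second pool labelled LLC-Chem they were -0.39, -0.37 and -0.25, and without the first -0.93, -1.08 and -0.99.

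Per length of exon in the gene models the chains were not equally abundant. That length was 1931 bases for C1qc against 1040 for C1qa and 1088 for C1qb, so the shares depend on the models used. C1qa took between 36.9% and 40.6% of the summed C1q signal per kb in the 4 pools, C1qb between 41.2% and 44.9%, and C1qc between 17.9% and 19.5%. These shares moved by less than 4 percentage points while the summed RPM of the chains went from 1745 in the second LLC pool to 769.9 in the second pool labelled LLC-Chem. None of the 50-base words in the transcripts of the chains occurs in another gene, so these levels do not depend on how reads of similar genes were assigned.

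The 250 bases upstream of the C1qb start site in RefSeq (GRCm38.p6, minus strand, chr4:136886201-136886450) are shown because this chain was the most abundant of the 9 genes per length. Capitals mark GAGGAA, the core bound by PU.1, a transcription factor of macrophages, found here 25 to 30 bases before the start site.
C1qb: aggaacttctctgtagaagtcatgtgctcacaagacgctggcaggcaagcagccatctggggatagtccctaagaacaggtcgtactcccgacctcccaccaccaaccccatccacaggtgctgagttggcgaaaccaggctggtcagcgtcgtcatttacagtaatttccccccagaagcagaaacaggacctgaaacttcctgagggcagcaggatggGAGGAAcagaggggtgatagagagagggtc
The same letters, on either strand, are in 23.13% of the 27025 promoters of this length, and the match is a description of the sequence. RefSeq windows were matched for 5 of the 9 genes (C1qb, C1qc, C1ra, C3 and Cd55). The C1qc window also holds GAGGAA, on the other strand, 188 to 193 bases before its start site.

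C1q was set beside the macrophage markers Cd68, Adgre1, Csf1r, Mrc1, Cd14, Aif1 and Lyz2. All 7 were measured, with a summed level of 3968 and 6863 RPM in LLC and 3355 and 1744 RPM in LLC-Chem, and a median log2 fold change of -1.22. Csf1r, Cd14 and Aif1 were called lower (adjusted p = 0.049, 0.0235 and 0.00665 by limma). With a replicate block the call of Csf1r was lost (limma adjusted p = 0.0853). Mrc1 was nearly level, at a log2 fold change of -0.06 (standard error 0.15). On the mean log2 scale the C1q chains lay above these markers by 0.76 and 0.75 in the LLC pools and by 1.18 and 1.28 in the pools labelled LLC-Chem. Against single markers the order differed: the ratio of summed C1q RPM to Csf1r RPM was 4.15 and 3.28 in LLC and 5.60 and 7.64 in LLC-Chem, but the ratio to Mrc1 RPM was 2.87 and 4.11 in LLC and 2.52 and 2.01 in LLC-Chem. The part of macrophage content in the C1q levels was not tested.

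**Figure D2:**
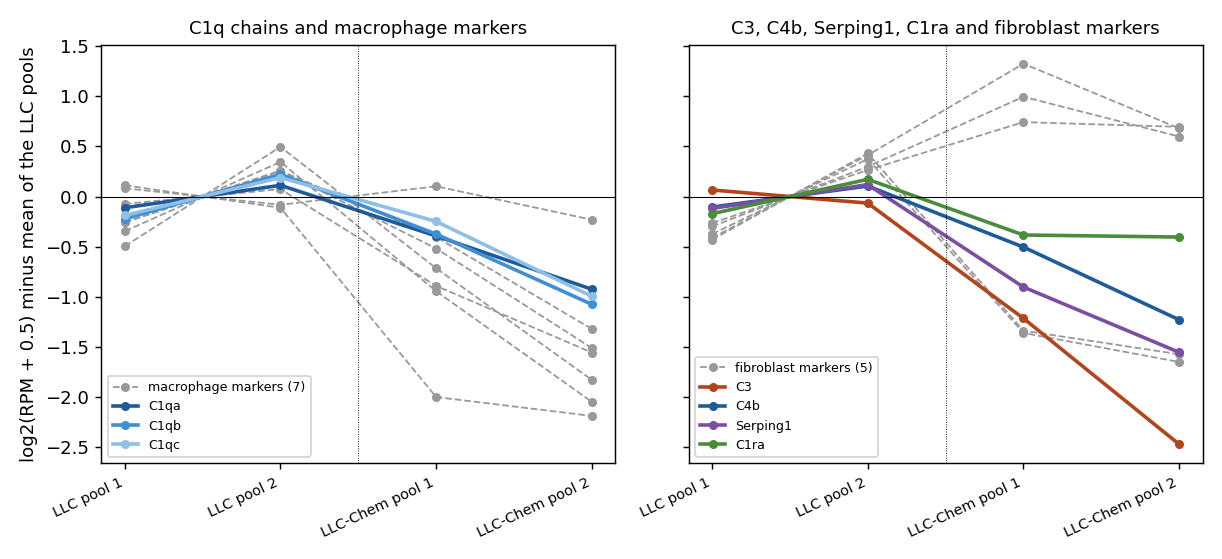
Each gene's log2(RPM + 0.5) minus its mean over the LLC pools, by pool. Lines only join the values of a gene, grey dashed lines are the 7 macrophage markers (left) and 5 fibroblast markers (right). The C1q chains lie between Mrc1, the highest of the macrophage markers in the pools labelled LLC-Chem, and the remaining 6, and C3 falls below all 5 fibroblast markers in the second pool labelled LLC-Chem.

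C1ra encodes C1r, the protease that C1q activates first, and C4b encodes C4, which C1s then cleaves. C1ra (chromosome 6, 124512405 to 124523443, plus strand) measured 155.0 and 196.8 RPM in LLC and 133.8 and 131.9 RPM in LLC-Chem. Its pools labelled LLC-Chem were nearly equal, and its log2 fold change of -0.39 (standard error 0.14) was the smallest of the 9. Without the second LLC pool the fold change of C1ra was -0.22, and without the first -0.57. C1s1, which encodes the partner protease C1s and lies next to C1ra, measured 163.7 and 202.6 RPM in LLC and 178.6 and 173.4 RPM in LLC-Chem, and was not called (log2 fold change -0.05, adjusted p = 0.793 by limma). Per kb of exon, the ratio of C1ra to C1s1 was 0.99 and 1.02 in the LLC pools and 0.79 and 0.80 in the pools labelled LLC-Chem. The ratio of the protease pair was therefore near 1 in LLC and lower in both pools labelled LLC-Chem. Of the 50-base words of C1ra, 50.8% also occur in other genes, mostly in its neighbor C1rb, and of those of C1s1 35.1% do, so that reads could be dropped in both. C1rb itself was at 0.40 and 0.10 RPM in LLC and at 0 in LLC-Chem.

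C4b (chromosome 17, 34728380 to 34743882, minus strand) measured 380.4 and 440.2 RPM in LLC and 288.3 and 174.3 RPM in LLC-Chem, a log2 fold change of -0.87 (standard error 0.25). The groups did not overlap, and the pools labelled LLC-Chem differed from each other by more than the LLC pools did. The log2 fold change of C4b was -0.50 without the second pool labelled LLC-Chem and -1.23 without the first. C4a, its neighbor on chromosome 17, shares 34.6% of the words of C4b and was at 2.00 and 1.20 RPM in LLC and 2.65 and 3.05 RPM in LLC-Chem (adjusted p = 0.113 by limma). C2, the substrate of C1s beside C4, was at 7.95 and 4.20 RPM in LLC and 3.50 and 4.55 RPM in LLC-Chem (adjusted p = 0.3 by limma), and the groups overlapped.

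**Figure D3:**
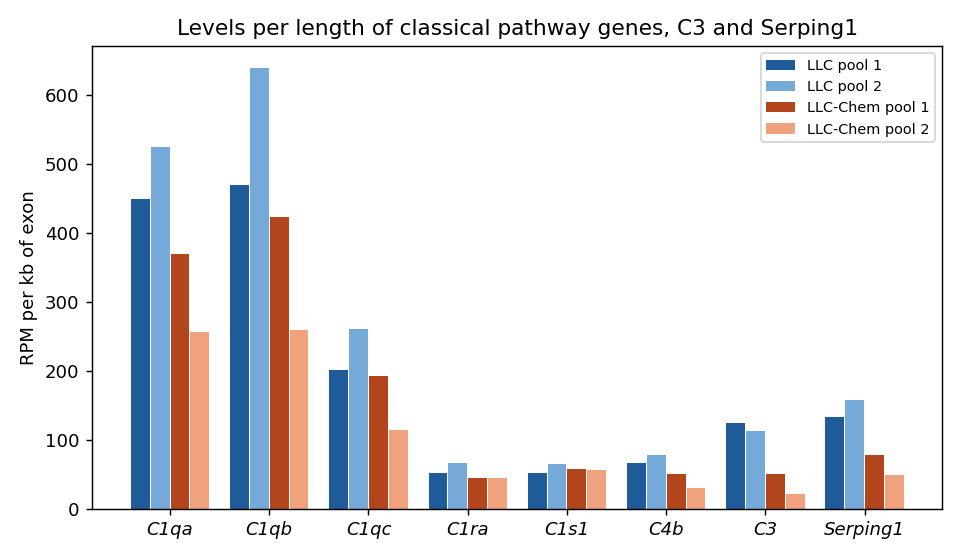
RPM per kb of exon in each pool (bars from 0) for the C1q chains, both C1 proteases, C4b, C3 and Serping1. C1s1 stays between 52.3 and 64.7 RPM per kb in all pools, while C3 goes from 123.5 and 112.8 in LLC to 50.8 and 21.2 in LLC-Chem.

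C3 (chromosome 17, 57203970 to 57228136, minus strand) encodes the protein on which all activation routes converge, and whose fragments mark targets and signal to leukocytes. It had the largest difference of the 9 genes. C3 measured 635.3 and 580.0 RPM in LLC, or 607.7 ± 39.1 (SD, n = 2), and 261.2 and 109.1 RPM in LLC-Chem, or 185.1 ± 107.5 (SD, n = 2). Both pools labelled LLC-Chem were far below the LLC pools, but they also lay 1.26 apart on the log2 scale themselves. The log2 fold change was -1.84 (standard error 0.39), and it was -1.22 without the second pool labelled LLC-Chem and -2.47 without the first. C3 was the only member whose first LLC pool exceeded the second. Per kb of exon, C3 stood at 1.85 and 1.46 times the level of C4b in LLC and at 1.00 and 0.69 times in LLC-Chem. No 50-base word of C3 occurs in another gene.

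The 250 bases before the RefSeq start site of C3 (GRCm38.p6, minus strand, chr17:57228137-57228386) are shown because C3 moved most. Capitals mark TTGCNNAA, a form of the site bound by C/EBP factors, which lies 38 to 45 bases before the start site. This motif was chosen after the sequence was seen.
C3: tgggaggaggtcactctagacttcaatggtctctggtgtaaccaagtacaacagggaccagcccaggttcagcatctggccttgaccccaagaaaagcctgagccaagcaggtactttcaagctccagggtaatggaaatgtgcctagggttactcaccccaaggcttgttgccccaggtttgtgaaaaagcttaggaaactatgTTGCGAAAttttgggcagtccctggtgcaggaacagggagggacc
On either strand TTGCNNAA is in 9.55% of the 27025 promoters. The letters TTCNNNGAA of STAT factors (in 7.18% of promoters) and the NF-kB motif (in 0.34%) are in none of the 5 windows matched.

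Fibroblasts also make C3, C4, C1r and C1 inhibitor, and their markers did not move together. Of 5 markers, Pdgfra was called higher (log2 fold change 0.72, adjusted p = 0.045 by limma), Dcn and Lum were at 0.80 and 1.00 without being called (adjusted p = 0.0753 and 0.0776 by limma), and Col1a1 and Col1a2 were called lower (adjusted p = 0.0334 and 0.0383 by limma). With a replicate block the calls of Pdgfra, Col1a1 and Col1a2 were lost (limma adjusted p = 0.0658, 0.0857 and 0.0871). The summed level of the 5 markers was 11800 and 20339 RPM in LLC and 8559 and 6870 RPM in LLC-Chem. The ratio of C3 RPM to Dcn RPM was 0.747 and 0.451 in LLC and 0.125 and 0.069 in LLC-Chem, and that of C1s1 to Dcn was 0.193 and 0.157 against 0.086 and 0.109. The ratio depended on the marker: to Col1a1 RPM that of C3 was 0.110 and 0.060 in LLC and 0.090 and 0.046 in LLC-Chem, and to Col1a2 RPM it was 0.131 and 0.066 against 0.101 and 0.050, so that the groups overlapped for both collagens, while for Pdgfra and Lum, as for Dcn, they did not. The part of fibroblast content was not tested. Liver RNA was near the detection limit: none of 4 hepatocyte markers reached the limit for testing, Ttr and Fgb were at 0 in all pools, and Alb did not exceed 0.55 RPM.

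Cfb (chromosome 17, 34856374 to 34862518, minus strand) encodes factor B, the protease of the alternative pathway. It was the weakest of the 9, at 1.30 and 2.15 RPM in LLC and 0.90 and 0.55 RPM in LLC-Chem, with a log2 fold change of -0.85 (standard error 0.31). In GENCODE M21, 79.5% of its exon bases lie on the same strand under exons of Gm20547, a gene model that spans Cfb and C2 and is listed at 0 in all 4 pools. How reads on such shared exons were treated is not given in the sources used here, so the level of Cfb is uncertain. For C2 the share is 42.8%.

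Serping1 and Cd55 encode regulators. Serping1 (chromosome 2, 84765387 to 84775444, minus strand) encodes C1 inhibitor, which inactivates C1r, C1s and the proteases of the lectin pathway. It measured 309.3 and 364.8 RPM in LLC, or 337.0 ± 39.3 (SD, n = 2), and 179.4 and 114.1 RPM in LLC-Chem, or 146.7 ± 46.2 (SD, n = 2). The groups were well apart, at a log2 fold change of -1.23 (standard error 0.23), which was -0.90 without the second pool labelled LLC-Chem and -1.55 without the first. Per kb of exon, Serping1 exceeded C1ra 2.56-fold and 2.38-fold in LLC and 1.72-fold and 1.11-fold in LLC-Chem, so the inhibitor was lower relative to its target protease in both pools labelled LLC-Chem.

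Cd55 (chromosome 1, 130439027 to 130462744, minus strand) encodes decay-accelerating factor, a membrane protein that takes C3 convertases apart on host cells. It measured 56.1 and 195.6 RPM in LLC and 56.0 and 47.5 RPM in LLC-Chem. The first LLC pool was level with the first pool labelled LLC-Chem, and only the second LLC pool stood above the rest. The log2 fold change of -1.02 had a standard error of 0.55, and it was -0.12 without the second LLC pool and -1.91 without the first. Its difference between the groups thus rested on 1 library. The paralog Cd55b was at 0.05 RPM or 0 in every pool.

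Within the groups the pools had their own order. In the LLC group the second pool was higher for 8 of the 9 genes (41.7% of all genes tested), with a median log2 ratio of the first to the second pool of -0.34. In the LLC-Chem group the first pool was higher for 9 of 9 (51.6% of all genes tested), with a median of 0.65. Over all genes tested these medians were 0.05 and 0.01. This order was shared by markers of several cell types. All 5 fibroblast markers were higher in the second LLC pool (median log2 ratio -0.75) and in the first pool labelled LLC-Chem (median 0.29). All 7 macrophage markers were higher in the first pool labelled LLC-Chem (median log2 ratio 0.92), and 5 of the 7 in the second LLC pool (median -0.51). The 5 endothelial, 4 pericyte and 3 neutrophil markers tested were all higher in the first pool labelled LLC-Chem, but only 1, 0 and 0 of them in the second LLC pool. The part of these cells in the order of the pools was not tested. C1ra and C1s1 hardly differed between the pools labelled LLC-Chem, at log2 ratios of 0.02 and 0.04, while C3 differed by 1.26.

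A further 46 complement genes, grouped by their role in the cascade, were read from the same fit. A total of 22 reached the limit for testing, of which 4 fell (13.5% of all genes tested did), 3 rose (9.54%) and 15 were not called. Their median log2 fold change was -0.08. All of these calls were lost (0 lower, 0 higher by limma) when any 1 pool was left out or when every gene above 0 was tested, counts at an unadjusted p being given with the alternatives. The receptors held 3 of the 4 falls. C5ar2, 1 of these falls, and Vtn, which was not called, passed the limit only through their LLC pools (LLC-Chem means 0.92 and 0.90 RPM). Mbl1, Fcnb, C8a, C8b and C4bp, which were not tested, were at 0 in all pools.

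Of 8 receptors, 7 were tested. C3ar1, the receptor of the C3 fragment C3a, fell, with 234.9 and 289.7 RPM in LLC against 117.1 and 73.6 RPM in LLC-Chem (log2 fold change -1.49 ± 0.24, SE, limma adjusted p = 0.0179). C5ar2, which binds C5a, fell, with 5.50 and 4.70 RPM in LLC against 1.20 and 0.65 RPM in LLC-Chem (log2 fold change -2.0 ± 0.27, SE, limma adjusted p = 0.0142). C5ar1, the main C5a receptor of myeloid cells, was at 103.3 and 114.7 RPM in LLC and 79.9 and 44.2 RPM in LLC-Chem and was not called (adjusted p = 0.0704 by limma). Itgam, the alpha chain of complement receptor 3, fell, with 132.7 and 128.6 RPM in LLC against 79.1 and 68.7 RPM in LLC-Chem. Its log2 fold change was -0.82 ± 0.11 (SE, limma adjusted p = 0.0136), although 68.7% of its exon bases lie under another gene model on the same strand. A second entry with the symbol Itgam shares 70.9% of its 50-base words with this gene. That entry was not used, so the call covers only the entry with the longer exons. The shared beta chain Itgb2 and the alpha chain Itgax were not called (adjusted p = 0.199 and 0.396 by limma), nor was Vsig4, a macrophage receptor for C3b, at 0.75 and 1.55 RPM in LLC and 3.70 and 2.10 RPM in LLC-Chem (adjusted p = 0.0903 by limma).

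In the alternative pathway, genes for proteins acting beside Cfb moved in opposite directions. Cfp, which encodes properdin, the stabilizer of the C3 convertase, fell, with 239.9 and 290.0 RPM in LLC against 156.3 and 102.3 RPM in LLC-Chem (log2 fold change -1.06 ± 0.22, SE, limma adjusted p = 0.0294), a call that was lost without a trend (0.0534) and with a replicate block (0.054). Cfd, which encodes factor D, the protease that activates factor B and a product of adipocytes, rose, with 1.40 RPM in both LLC pools against 15.1 and 4.10 RPM in LLC-Chem (log2 fold change 2.16 ± 0.56, SE, limma adjusted p = 0.0466). The log2 fold change of Cfd was 1.28 without the first and 3.04 without the second pool labelled LLC-Chem, and the call was also lost with a pseudocount of 1 RPM, a limit of 5 RPM, no trend or a replicate block (limma adjusted p = 0.0511 to 0.0706). For Cfd the pools labelled LLC-Chem differed by more than the lower of them differed from LLC. Of 4 adipocyte markers 2 were tested and 0 called by limma: Adipoq, which passed the limit only through the pools labelled LLC-Chem (LLC mean 0.92 RPM), measured 1.10 and 0.75 RPM in LLC and 3.80 and 1.05 RPM in LLC-Chem, and Fabp4 25.2 and 17.6 RPM against 19.2 and 8.85 RPM. The part of adipocytes in the rise of Cfd was not tested.

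In the lectin pathway, which starts from sugar-binding proteins instead of C1q, 3 of 9 genes were tested. Masp1, which encodes MASP-1 and MASP-3, the latter a protease that matures factor D, rose, with 15.5 and 16.5 RPM in LLC against 35.9 and 44.7 RPM in LLC-Chem (log2 fold change 1.30 ± 0.15, SE, limma adjusted p = 0.0126). The groups were far apart against the spread of the pools. Fcna and Colec12, a soluble and a membrane-bound recognition protein, were higher in each pool labelled LLC-Chem than in LLC without being called (adjusted p = 0.152 and 0.0713 by limma). The terminal pathway, whose proteins form the membrane pore, was scarcely expressed, with 2 of 7 genes tested and 0 called by limma, and 0 at an unadjusted p under 0.05. Hc, the gene of C5, was under the limit at 2.20 and 1.25 RPM in LLC and at 0.45 and 0 RPM in LLC-Chem.

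Among the other membrane regulators, Cr1l (Crry), the main C3 regulator on mouse cells, was at 67.9 and 74.4 RPM in LLC and 66.3 and 63.2 RPM in LLC-Chem and was not called (log2 fold change -0.13 ± 0.10, SE, limma adjusted p = 0.361). Cd46, a cofactor for C3b cleavage that is weakly expressed outside the testis in mice, rose, with 1.85 and 1.80 RPM in LLC against 4.45 and 5.90 RPM in LLC-Chem (log2 fold change 1.28 ± 0.22, SE, limma adjusted p = 0.0217), and 14.2% of its exon bases lie under a gene on the opposite strand. Cd59a, which blocks the pore, was at 2.75 and 2.55 RPM in LLC and 3.60 and 3.45 RPM in LLC-Chem (adjusted p = 0.227 by limma). The fluid-phase proteins Clu and Vtn were not called either (adjusted p = 0.19 and 0.516 by limma).

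**Figure D4:**
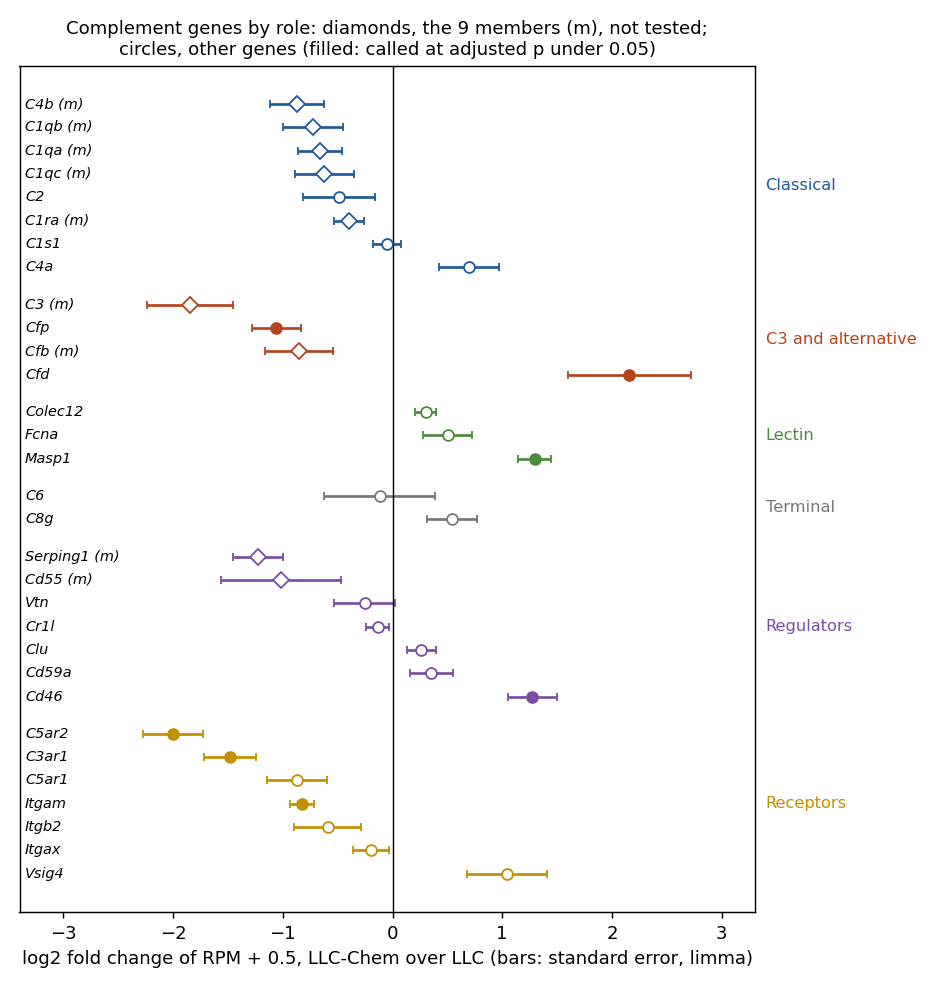
Log2 fold change, LLC-Chem over LLC, with its standard error for the 9 members (diamonds, marked m, no test) and the 22 other complement genes tested (circles, filled where called), by role. Called falls lie among the receptors and Cfp, and called rises are Cfd, Masp1 and Cd46.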

How the data were processed

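RNA of 4 tumor pools (2 LLC, 2 LLC-Chem) was sequenced. The authors used STAR to map paired-end reads of TruSeq libraries to GRCm38.p4, counted reads per Ensembl gene by HTSeq, and deposited RPM values. Tool versions and the strand setting are not given in the sources used here. The deposited RPM are whole steps (100% within 0.05 of a step) summing to about 20000000 per pool, so totals and reads were recovered by assuming counts scaled to that total and rounded up. Pools of a group differed beyond sampling noise (mean chi-square per gene 66.2 in LLC, 27.1 in LLC-Chem).

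RPM are not counts, so log2(RPM + 0.5), a scale that understates changes of weak genes, was fitted for the 13694 genes averaging at least 1 RPM with limma 3.58.1 (eBayes with trend, two-sided, Benjamini-Hochberg; R 4.3.3), and the fit was checked on simulated data. Nothing says whether pools came from separate experiments. With 2 pools against 2, an exact permutation test cannot go below p = 0.33. Alternatives were other pseudocounts, scalings, filters, eBayes without trend, a replicate block, edgeR 4.0.16 and DESeq2 1.42.0 on recovered reads, and each pool left out. Gene models were from GENCODE M21 (98.9% of identifiers matched), and for a symbol with more than 1 identifier the model with the longer exons was used. Promoters came from RefSeq (GRCm38.p6), and words of 50 bases were compared over all GENCODE transcripts. Named were all members, Rarres2 and complement genes or markers on the lists. Members and lists were chosen with earlier results of these data known. Some further complement genes of the list are not reported here, and counts over the other complement genes leave them out.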

Additional observations from a re-analysis of the deposited data

How the results depend on the processing

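The direction of all 9 members was fixed under most of the 15 alternatives, since their groups do not overlap and several settings leave the fold change as it is, so that its being kept says nothing of stability. Among alternatives that kept all pools, only Cfb moved by more than the spread between its pools. On recovered reads Cfb was at -1.20 by edgeR and -1.22 by DESeq2. A left-out pool cannot move a fold change beyond that spread, because the spread is computed from the same pools. With a pool left out, Cd55 ran from -1.91 to -0.12 and C3 from -2.47 to -1.22. Of the 46 other complement genes, 3 to 6 were called lower and 1 to 4 higher under the alternatives that kept all pools and kept or raised the limit on low values. With a limit of 5 RPM 1 was called higher, since Cd46 lies under it and Cfd was at adjusted p = 0.0528 by limma. With every gene detected in some pool included (26260 genes), limma called 0 lower and 1 higher gene, and 0 of the other complement genes in either direction, against 4003 lower and 3394 higher at an unadjusted p under 0.05 (5 and 6 of the complement genes). Leaving out any 1 pool gave 0 to 0 calls in both directions by limma over all genes and over the complement genes, against 1580 to 2823 lower and 998 to 2359 higher genes at an unadjusted p under 0.05 (4 to 6 and 3 to 5 of the complement genes). In these fits the lone pool is assumed to vary like the others. Without a trend in eBayes, Cfd and Cfp were not called (adjusted p = 0.0706 and 0.0534 by limma), and a pseudocount of 1 RPM left Cfd at 0.0513. Directions turned, without a call, only for C1s1 (-0.203 to 0.104 with a pool left out, above 0 without the second LLC pool) and C6 (-0.90 to 0.67 with a pool left out, above 0 without the second pool labelled LLC-Chem, and 0.138 by edgeR and 0.127 by DESeq2). The median over all genes stayed within 0.06 of 0 on the log2 scale under each scaling.

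The groups share replicate numbers. Over the genes tested the deviations of same-numbered pools had a correlation of -0.1405, which gave no sign of pairing. With 2 pools per group this value cannot show that the pools were not paired. With the replicate number as a block limma called 1064 genes lower and 549 higher, and 3 and 2 of the other complement genes, with Cfp at 0.054 and Cfd at 0.0511. Crossing the pairing, an alternative chosen after seeing the data, gave 2320 lower and 1579 higher genes, and 6 and 4 of the complement genes.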

Other observations

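Markers of 3 further cell types had most of their tested members called lower under the LLC-Chem label. Of 5 endothelial markers 4 were called lower by limma (median log2 fold change -2.08), as were 3 of 4 pericyte markers (median -1.46) and 3 of 3 neutrophil markers tested (median -2.22), against 13.5% of all genes. The leukocyte marker Ptprc fell, with 124.5 and 124.3 RPM in LLC against 55.2 and 29.3 RPM in LLC-Chem (limma adjusted p = 0.0218). Of 5 T cell markers only Cd4 was tested, which passed the limit through its LLC pools alone (LLC-Chem mean 0.82 RPM) and was not called (adjusted p = 0.137 by limma), and 0 of 3 B cell markers reached the limit for testing. Of the muscle markers Tnnt3, the only 1 tested, was called higher (adjusted p = 0.0419 by limma), and the keratinocyte marker Krt10 was not called (adjusted p = 0.109 by limma). The 4 hemoglobin genes were not called, and their summed level was 112.7 and 45.1 RPM in LLC and 140.6 and 4.0 RPM in LLC-Chem.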
